A study of Mus musculus with 12 samples.

Results

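The genes described here are Adh1 and 8 other genes of retinoid metabolism and signalling: Rdh10, Aldh1a1, Aldh1a2, Aldh1a3, Crabp1, Crabp2, Rara and Rarg. They were chosen by name for their roles in oxidizing, binding and sensing retinoids, and every probe set that carries 1 of these symbols in the platform's annotation was taken. That gave 13 probe sets for all 9 genes, of 18193 genes with a probe set of a single symbol. The measured change of Adh1 was known when the genes were chosen, so its values are given as a description without a test. The adjusted p-values of the other members come from a fit over all genes, but the list was drawn up with earlier results of these data known, and they are not independent evidence.

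RNA was measured on 12 1-colour arrays of B16-F10 cells, an established pigmented mouse melanoma line, in 3 groups of 4 arrays. The first group received pMES carrying chicken FoxD3-VP16, a form of FoxD3 whose C-terminal repression domain was exchanged for the transactivation domain of VP16, a herpesvirus protein. The second received pMES carrying chicken FoxD3, a forkhead-family regulator of neural crest cells, and the third received empty pMES. In all 3 groups the chick beta-actin promoter drove the transcript, EGFP was made from the same transcript through an internal ribosome entry site, and cells positive for EGFP were collected by sorting 24 h after transfection. The transfections were of 1 cell line, the transgenes are chicken sequences driven by a promoter other than that of the gene, and no label says that replicates came from separate cultures, so the p-values rest on a spread between samples that may be technical. The design allows each gene to be compared between the native factor, the form that carries an activation domain, and the vector alone.

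Retinol is oxidized to retinal by alcohol dehydrogenases and by retinol dehydrogenases of the short-chain family, and retinal is oxidized to retinoic acid by the ALDH1A enzymes. Inside the cell retinoic acid is bound by CRABP proteins, acts through RAR and RXR nuclear receptors on target genes, and is removed by CYP26 hydroxylases. Retinoic acid patterns the embryo, including neural crest derivatives, and promotes differentiation and slows growth in melanoma lines in culture.

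All levels are log2(intensity + 16) after quantile normalization, a scale that understates the change of dim genes, and levels of different probe sets are not compared with each other. The value table gives no detection calls that were used here, so a probe set was taken as too dim to judge when its mean over the 12 arrays lay below 5.98, the level under which 40% of the 18193 genes fell. By that limit 8 of the 13 probe sets were too dim, and with them 5 of the 9 genes: Aldh1a1, Aldh1a2, Aldh1a3, Crabp1 and Rara. Just outside the limit lay the second probe set of Rarg, 1419416_a_at, with a mean of 5.97, and the dimmest member inside it was Crabp2, with a mean of 7.57. Adh1, Rdh10, Crabp2 and Rarg were left to be tested, and in each of these 4 the mean of every group lay above the limit.

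Over the tested genes 50.1% of the variance went with the replicate number and 30.8% with the vector. The 3 arrays numbered 1 stood apart, with hybridization controls at 14.5 to 14.7 on the log2 scale as deposited, against 11.8 to 13.1 on the other 9, 18S RNA at 12.8 to 13.1 against 9.31 to 10.1, and a Gapdh 3' minus 5' difference of 0.56 to 0.77 against -0.25 to 0.04. Every vector has 1 array of each number, so a fit with the number as a block separates both, and its value stands beside a result whose call it changes. The cells had the pigment cell markers of the line: all 7 of Mitf, Sox10, Tyr, Tyrp1, Dct, Pmel and Mlana were above the limit. The defining markers of other cell types were mostly dim, with 0 of 5 keratinocyte, 0 of 4 hepatocyte, 2 of 6 leukocyte and 4 of 8 fibroblast markers above it. The summed normalized intensity of the fibroblast list was 821 to 1156 with FoxD3-VP16, 1097 to 1385 with FoxD3 and 446 to 632 with the empty vector, with Dcn, Lum, Col3a1 and Thy1 too dim to judge and the mean level of Col1a2 at 7.90 with FoxD3-VP16, 7.07 with FoxD3 and 7.79 with the empty vector. Its part in the results below was not tested.

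Adh1, a class I alcohol dehydrogenase that oxidizes ethanol and retinol, stood above the empty vector with FoxD3-VP16 and below it with FoxD3. Its probe set 1416225_at read 9.53, 9.55, 9.57 and 9.68 with FoxD3-VP16, 7.02, 7.22, 6.90 and 6.96 with FoxD3, and 7.67, 8.08, 7.99 and 8.33 with the empty vector, in the order of the replicate numbers. The 12 values fall into 3 separate ranges, with FoxD3-VP16 on top, the empty vector between and FoxD3 at the bottom, and no group overlaps another. Of all tested genes, 5.71% had no overlap in FoxD3-VP16 against the empty vector, 11.5% in FoxD3 against it and 18.2% between the transgenes. The share with 3 separate ranges was not counted. The means were 9.58 ± 0.07 with FoxD3-VP16, 7.02 ± 0.14 with FoxD3 and 8.02 ± 0.27 with the empty vector (SD, n = 4 each). FoxD3-VP16 exceeded the empty vector by 1.56 (SE 0.18), a 2.96-fold difference, and the replicate with the same number was higher in 4 of 4 pairs. FoxD3 differed from the empty vector by -0.99 (SE 0.18), 1.99-fold lower, and was lower in 4 of 4 pairs. How many of all genes have 4 of 4 pairs in 1 direction was not counted, so pairs are given here and below as description. Small differences can have them too: Fabp5 was 0.08 above the empty vector with FoxD3, higher in 4 of 4 pairs. The 2 transgenes were 2.56 apart (SE 0.18), with FoxD3-VP16 5.89-fold above FoxD3. These 3 differences share their groups and are not independent of each other.

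The same order stood in the intensities as deposited, before any further normalization. They were 669, 742, 770 and 837 with FoxD3-VP16, sorted from low to high, 93.6, 97.8, 130 and 132 with FoxD3, and 192, 231, 250 and 311 with the empty vector. The lowest FoxD3 array is well above the brightness limit, which corresponds to an intensity of 46.9, so Adh1 was measured in all 3 groups. In an array of a cell population, fewer cells with a transcript and less of it per cell cannot be told apart.

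**Figure D1:**
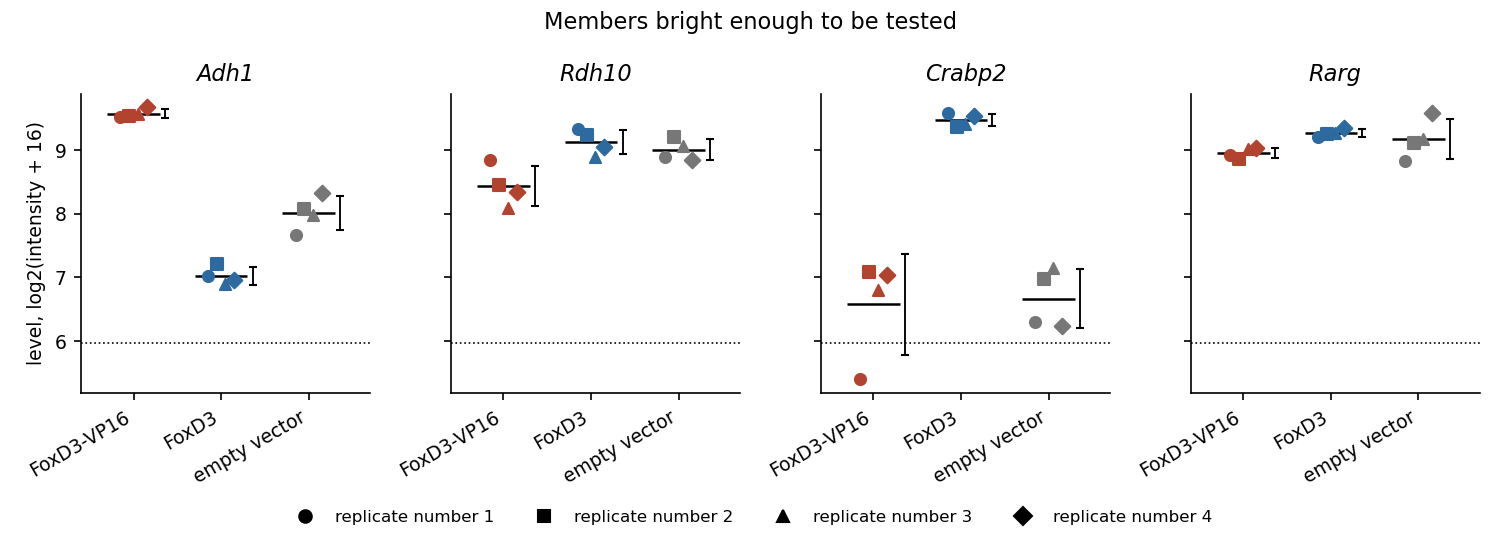
Levels of the 4 tested members, log2(intensity + 16), on each array of FoxD3-VP16, FoxD3 and the empty vector; lines are means of 4 arrays, bars are SD, symbols give the replicate number and the dotted line is the brightness limit of 5.98. The 3 groups of Adh1 do not overlap, Crabp2 is high on the 4 FoxD3 arrays alone, and Rdh10 is lowest with FoxD3-VP16.

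The promoter of Adh1 is shown because a DNA-binding factor was introduced and Adh1 is the member whose level stood in a different range in each group. RefSeq's window on GRCm38.p6 is chr3:138277335-138277634, plus strand, 250 bases before to 50 bases after the annotated start. Capitals mark the 1 match to TTTGTTT, a forkhead-type motif, which lies on the reverse strand with its first printed base 34 bases into the transcribed part.
Adh1: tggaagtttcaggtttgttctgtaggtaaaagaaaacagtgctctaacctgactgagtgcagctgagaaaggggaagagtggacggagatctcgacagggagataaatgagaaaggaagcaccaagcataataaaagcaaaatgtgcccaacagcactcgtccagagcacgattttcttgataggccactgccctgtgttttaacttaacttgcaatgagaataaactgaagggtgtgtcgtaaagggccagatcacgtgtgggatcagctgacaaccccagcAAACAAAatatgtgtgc
The motifs were searched on both strands, the forkhead-type TGTTTAC and TTTGTTT and the retinoic acid receptor half-sites AGGTCA and AGTTCA. The match to TTTGTTT was the only one in the Adh1 window, and 9.82% of 32851 RefSeq windows of the same length hold that motif. TGTTTAC is in 3.65% of windows, AGGTCA in 16.3% and AGTTCA in 14% of them. Windows were found for 6 of the 9 members, 11 in all; there were none for Rdh10, Crabp2 and Aldh1a3. No window of another member holds either forkhead-type motif, and AGGTCA is in 1 window of Rara and 1 of Rarg, with AGTTCA in another window of Rara. A match describes these letters alone and is no evidence of binding.

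Of the 3 tested members other than Adh1, limma with Benjamini-Hochberg adjustment over 10916 genes called 0 in FoxD3-VP16 against the empty vector, where 0.595% of all tested genes were called and 1 of the 3 had an unadjusted p under 0.05. It called 1 in FoxD3 against the empty vector (Crabp2, higher), where 4.01% were called, and 2 in FoxD3-VP16 against FoxD3 (Crabp2 and Rdh10, lower), where 9.57% were. With the replicate number as a block the first count became 1 of 3 (Rdh10), against 11.1% of all genes, and the others did not change, against 21% and 32%. All 4 arrays of one group lay apart from all 4 of the other in 1 of the 3 for FoxD3-VP16 against the empty vector (5.71% of genes), in 1 for FoxD3 against the empty vector (11.5%) and in all 3 for FoxD3-VP16 against FoxD3 (18.2%). The list was drawn up with results in view, so nothing is read from these counts. The median change of the 3 was -0.22 with FoxD3-VP16 and 0.12 with FoxD3, each against the empty vector, and -0.69 between the transgenes, beside medians of -0.02, -0.00 and -0.03 over all tested genes.

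Rdh10, the retinol dehydrogenase that is a main source of retinal in the mouse embryo, was lower with FoxD3-VP16 than with FoxD3. Its brighter probe set, 1426968_a_at, read 8.85, 8.46, 8.10 and 8.34 with FoxD3-VP16, 9.33, 9.24, 8.90 and 9.06 with FoxD3, and 8.90, 9.21, 9.07 and 8.86 with the empty vector. The 4 FoxD3-VP16 arrays are the lowest of the 12, by a narrow margin for array 1, and the other groups overlap. FoxD3-VP16 fell by 0.69 (SE 0.19) against FoxD3, with means of 8.44 ± 0.31 and 9.13 ± 0.19 (SD, n = 4 each), and limma's adjusted p was 0.0350 over all genes (0.00387 with the replicate block). That call was lost when FoxD3-VP16 array 2, 3 or 4 or FoxD3 array 1, 2 or 4 was left out, with adjusted p-values up to 0.111, under median scaling (0.115), without a filter on dim genes (0.0695), with the 2 groups alone (0.0586) and among probe sets in place of genes (0.0504). The difference from the empty vector, whose mean was 9.01 ± 0.16 (SD, n = 4), was -0.57 (SE 0.19, 95% interval -0.98 to -0.17), lower in 4 of 4 pairs, and passed the threshold with the replicate block (adjusted p = 0.0316) and without the 3 arrays numbered 1 (-0.77, adjusted p = 0.0453) but not in the fit over all 12 arrays without a block (adjusted p = 0.271). FoxD3 differed from the empty vector by 0.12 (95% interval -0.28 to 0.53, limma's adjusted p = 0.851).

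The second probe set of Rdh10, 1460632_at, read 7.74, 7.37, 7.48 and 7.06 with FoxD3-VP16, 8.66, 7.60, 8.05 and 8.10 with FoxD3, and 7.77, 7.70, 8.51 and 8.44 with the empty vector. Its groups overlap in every comparison. The mean with FoxD3-VP16 was 0.69 below each of the other groups, much as in the brighter probe set, but in the fit over 24129 probe sets limma's adjusted p was 0.189 against FoxD3 and 0.505 against the empty vector.

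None of the 3 retinal dehydrogenases that make retinoic acid could be judged. Aldh1a1 (1416468_at) averaged 4.33 with FoxD3-VP16, 4.17 with FoxD3 and 4.43 with the empty vector, and 1.01% of the probe sets with a single symbol were dimmer. Aldh1a2 (1422789_at), the main enzyme of the early embryo, averaged 4.18, 4.24 and 4.24 in the same groups, with 0.223% dimmer. These 2 probe sets sat near the floor of the array on all 12 arrays. Aldh1a3 has 3 probe sets, which averaged 5.86 (1448789_at), 5.57 (1427395_a_at) and 5.52 (1417642_at) over the 12 arrays, close below the limit. Single arrays of Aldh1a3 ranged from 4.24 to 6.51, every group had arrays on both sides of the limit in each probe set, and the groups overlap. No difference in these enzymes was detectable at these signals, which does not show that they are absent.

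**Figure D2:**
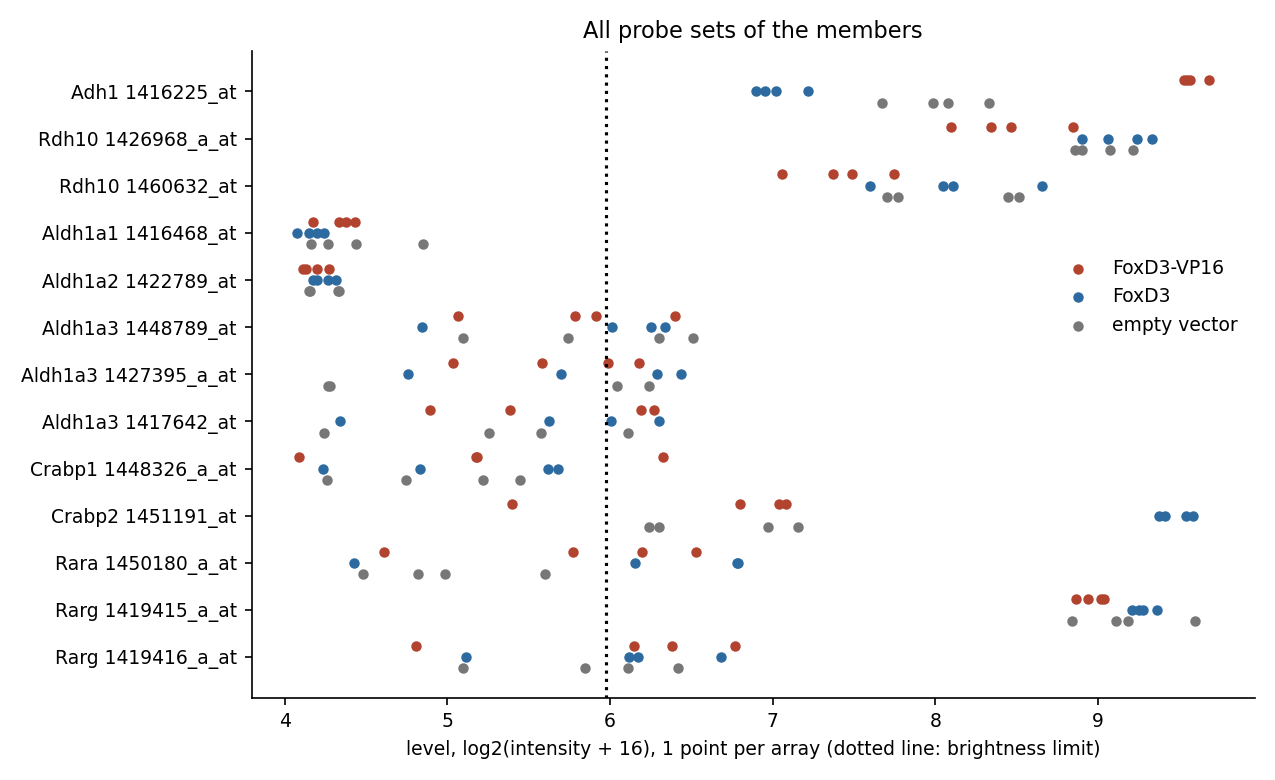
Level of all 13 probe sets of the 9 members on each of the 12 arrays, log2(intensity + 16), 1 point per array, with FoxD3-VP16 drawn above FoxD3 and the empty vector in each row; the dotted line is the brightness limit of 5.98. Aldh1a1 and Aldh1a2 stay near 4 on all arrays, whereas Aldh1a3, Crabp1, Rara and the second Rarg probe set spread across or just below the limit.

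Crabp2, which carries retinoic acid to its receptors, rose with FoxD3, while its FoxD3-VP16 arrays overlapped those of the empty vector. The probe set 1451191_at read 5.39, 7.08, 6.80 and 7.04 with FoxD3-VP16, 9.58, 9.38, 9.41 and 9.54 with FoxD3, and 6.30, 6.97, 7.16 and 6.24 with the empty vector. The 4 FoxD3 arrays lie together and above all others, and the ranges of the other groups overlap, with FoxD3-VP16 array 1 the lowest of all. FoxD3, with a mean of 9.48 ± 0.10, exceeded the empty vector, with 6.67 ± 0.46 (SD, n = 4 each), by 2.81 (SE 0.36, 95% interval 2.04 to 3.58), which is 7.02-fold, with limma's adjusted p of 0.000936. FoxD3-VP16, with a mean of 6.58 ± 0.80 (SD, n = 4), differed from the empty vector by -0.09, with a 95% interval of -0.86 to 0.68 that leaves room for changes of either sign (limma's adjusted p = 0.982); without FoxD3-VP16 array 1 the difference was 0.32. Against FoxD3 it fell by 2.90 (SE 0.36, 7.46-fold), with limma's adjusted p of 0.000302. In deposited intensity Crabp2 averaged 90.8 ± 29.4 with FoxD3-VP16, 701 ± 41.2 with FoxD3 and 89.9 ± 25.6 with the empty vector (SD, n = 4 each). Crabp1, the paralog that binds retinoic acid in the cytoplasm, was too dim to judge, with means of 5.19 ± 0.91, 5.09 ± 0.69 and 4.92 ± 0.53 in these groups (SD, n = 4 each).

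Of the 2 receptors, Rarg was bright and Rara was not. Rarg, retinoic acid receptor gamma, read 8.94, 8.87, 9.02 and 9.04 with FoxD3-VP16, 9.21, 9.25, 9.28 and 9.36 with FoxD3, and 8.84, 9.11, 9.19 and 9.60 with the empty vector on probe set 1419415_a_at. The arrays of the 2 transgenes are tightly grouped and do not overlap, while the empty vector spans both. FoxD3-VP16 differed from FoxD3 by -0.31 (SE 0.17, 95% interval -0.67 to 0.05), and limma's adjusted p was 0.297, or 0.0938 with the replicate block. The differences from the empty vector were -0.22 with FoxD3-VP16 (95% interval -0.58 to 0.14, limma's adjusted p = 0.769) and 0.09 with FoxD3 (-0.27 to 0.45, adjusted p = 0.879). Weighting arrays by quality put FoxD3-VP16 past the threshold against the empty vector (limma's adjusted p = 0.0103) and against FoxD3 (0.0461). That fit called 3465 and 4455 of the 10916 tested genes in these comparisons, so passing it sets Rarg little apart from other genes. The dimmer Rarg probe set, 1419416_a_at, averaged 6.03, 6.02 and 5.87 with FoxD3-VP16, FoxD3 and the empty vector.

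Rara, retinoic acid receptor alpha, was at or above the limit on 2 arrays of FoxD3-VP16, 3 of FoxD3 and 0 of the empty vector. Its values on 1450180_a_at were 4.61, 5.78, 6.19 and 6.53 with FoxD3-VP16, 4.43, 6.79, 6.78 and 6.15 with FoxD3, and 4.48, 4.82, 5.60 and 4.99 with the empty vector. Array 1 was the lowest in each group, the groups overlap, and the gene was not among those tested over all 12 arrays. The means differed from the empty vector by 0.80 with FoxD3-VP16 (SE 0.54) and by 1.07 with FoxD3 (SE 0.54). Without the 3 arrays numbered 1 Rara lay above the limit and its difference of 1.44 with FoxD3 passed the threshold (limma's adjusted p = 0.0291), while that with FoxD3-VP16, 1.00, did not (0.137). No empty vector array reached the limit set over 12 arrays, so Rara passed that filter through the transgene groups, where it was higher. This call is therefore no support for a change. With all 12 arrays and no filter on dim genes limma's adjusted p for FoxD3 was 0.480.

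**Figure D3:**
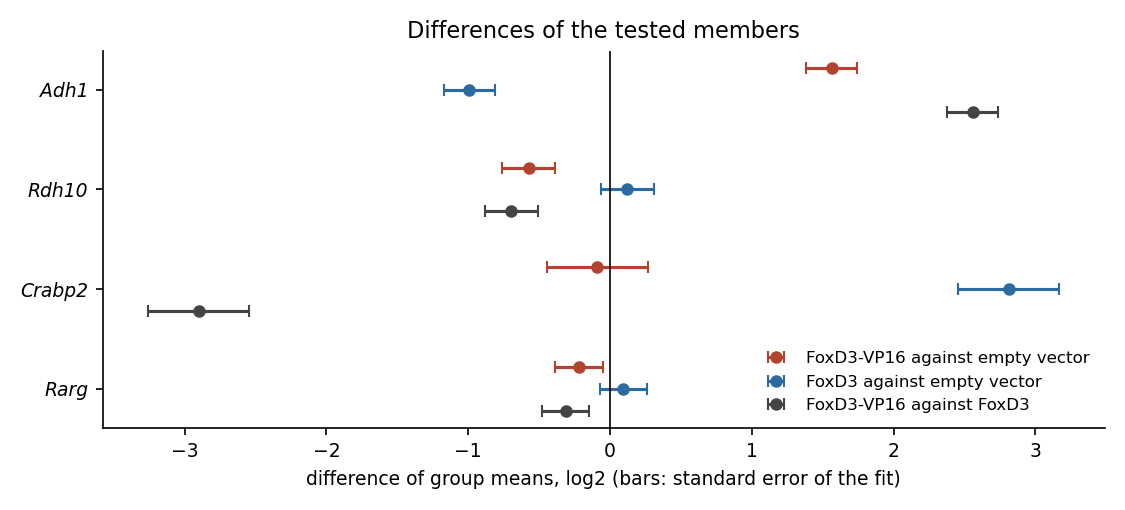
Differences of group means for the 4 tested members, log2(intensity + 16), as points with the standard error of the fit over 12 arrays; the rows of each gene run FoxD3-VP16 against the empty vector, FoxD3 against the empty vector and FoxD3-VP16 against FoxD3. Adh1 has differences of opposite sign with the 2 transgenes (1.56 and -0.99), whereas Crabp2 was called in the 2 comparisons that include FoxD3 (2.81 and -2.90).

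To set the members in their pathway, 65 other genes of retinoid uptake, metabolism, receptors and response were listed by known role. Of these 56 were on the array, 9 were not analysed here, and 28 were bright enough to be tested. Limma called 0 of the 28 in FoxD3-VP16 against the empty vector, where 9 had an unadjusted p under 0.05 and 7 passed with the replicate block (4 higher, 3 lower). It called 2 in FoxD3 against the empty vector, both higher (7.14% of the 28), with 8 under the block (4 higher, 4 lower). Between FoxD3-VP16 and FoxD3 it called 6, of which 4 were higher and 2 lower (21.4% of the 28), with 15 under the block (8 higher, 7 lower). The shares of all genes called are those given above for the same comparisons. The share of all genes with an unadjusted p under 0.05 was not counted, so nothing is read from the 9. The median changes of the 28 were 0.02, -0.05 and -0.02 in these comparisons, beside -0.02, -0.00 and -0.03 for all tested genes. Tgm2 was known to rise with FoxD3 when the list was drawn up, so its call is no independent evidence. Bco2, among the 6, passed the dim filter through the FoxD3-VP16 group, where it was highest, so its call is no support for a change.

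Among the binding proteins and uptake genes only Fabp5 and Dgat1 of 10 on the array were bright, and neither was called. Stra6, the retinol transporter, and Lrat, which stores retinol as ester, were too dim, at means of 4.67 and 4.64. Dgat1, which can also esterify retinol, averaged 10.1 ± 0.27 with FoxD3-VP16, 10.5 ± 0.18 with FoxD3 and 9.87 ± 0.36 with the empty vector (SD, n = 4 each). Its difference of 0.61 with FoxD3 had limma's adjusted p of 0.115, and 0.00363 with the replicate block.

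The list of retinol and retinal dehydrogenases and reductases also holds Bco2, which is neither, and 10 of its 22 genes were bright. Bco2 was the only 1 called without the replicate block, between the transgenes, where 9.57% of all tested genes were called. Bco2, a carotenoid-cleaving oxygenase, averaged 7.35 ± 0.27 with FoxD3-VP16, 5.33 ± 0.72 with FoxD3 and 6.22 ± 0.40 with the empty vector (SD, n = 4 each). FoxD3-VP16 was 2.02 above FoxD3 (SE 0.37, limma's adjusted p = 0.00412, higher in 4 of 4 pairs). Its differences from the empty vector were 1.13 with FoxD3-VP16 (adjusted p = 0.279 in limma) and -0.90 with FoxD3 (adjusted p = 0.244), and neither passed with the block. The FoxD3 mean of Bco2 lies below the brightness limit. Dhrs3, which reduces retinal back to retinol, averaged 8.68 ± 0.70 with FoxD3-VP16, 7.72 ± 0.56 with FoxD3 and 7.60 ± 0.71 with the empty vector (SD, n = 4 each). FoxD3-VP16 differed from the empty vector by 1.08, higher in 4 of 4 pairs, with limma's adjusted p of 0.367, or 0.00673 with the block.

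Adh1 lies in a cluster of alcohol dehydrogenase genes on mouse chromosome 3, between Adh7 and Adh6a in the GRCm38.p6 annotation. Of its neighbours in the cluster, Adh6a, Adh6b and Adh4 were too dim to judge, with means of 5.04, 4.67 and 4.47. Adh7, the class IV enzyme that oxidizes retinol, averaged 9.20 ± 0.46 with FoxD3-VP16, 8.47 ± 0.56 with FoxD3 and 8.99 ± 0.63 with the empty vector (SD, n = 4 each). FoxD3-VP16 was 0.73 above FoxD3, higher in 4 of 4 pairs, with limma's adjusted p of 0.239, or 0.00210 with the replicate block. FoxD3 differed from the empty vector by -0.52 (adjusted p = 0.542 in limma, 0.0236 with the block) and FoxD3-VP16 by 0.21 (adjusted p = 0.936). Adh5, the formaldehyde-detoxifying class III enzyme, differed from the empty vector by 0.03 with FoxD3-VP16 and by -0.06 with FoxD3, and neither passed in either fit.

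Among hydroxylases, receptors and coregulators, 10 of 11 were bright. Cyp26b1 and Nrip1 were called, both between the transgenes, where 9.57% of all tested genes were called. Cyp26b1, which degrades retinoic acid, averaged 9.12 ± 0.27 with FoxD3-VP16, 7.99 ± 0.42 with FoxD3 and 8.55 ± 0.26 with the empty vector (SD, n = 4 each). FoxD3-VP16 was 1.13 above FoxD3 (SE 0.23, limma's adjusted p = 0.00871). Nrip1, a corepressor of nuclear receptors, averaged 10.8 ± 0.15 with FoxD3-VP16, 9.39 ± 0.51 with FoxD3 and 10.2 ± 0.47 with the empty vector (SD, n = 4 each). It was 1.36 higher with FoxD3-VP16 than with FoxD3 (SE 0.26, limma's adjusted p = 0.00563). Its differences of 0.59 with FoxD3-VP16 and -0.78 with FoxD3 against the empty vector had limma's adjusted p of 0.466 and 0.140, and 0.0358 and 0.00474 with the block. Both calls between the transgenes were lost under median scaling, with adjusted p-values of 0.0640 for Cyp26b1 and 0.137 for Nrip1. Cyp26a1, another hydroxylase, averaged 5.26 ± 1.0, 6.30 ± 1.0 and 7.08 ± 0.45 with FoxD3-VP16, FoxD3 and the empty vector (SD, n = 4 each), a difference of -1.82 with FoxD3-VP16 (limma's adjusted p = 0.236, or 0.0113 with the block). The FoxD3-VP16 mean of Cyp26a1 lies below the brightness limit. Cyp26a1 passed that limit through the empty vector group, where it was highest, so its value with the block is no support for a change.

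Of 18 genes known to respond to retinoic acid, 10 were bright, and Tgm2, Bhlhe40, Meis2 and Nrip1 were called in at least 1 comparison. The share of all genes called in at least 1 was not counted. Of the 10, 0 were called in FoxD3-VP16 against the empty vector (0.595% of all genes) and 2 in FoxD3 against it (4.01%). Between the transgenes 2 were called higher and 2 lower (9.57%). The list was drawn up with earlier results known, so nothing is read from these counts. Tgm2, tissue transglutaminase, averaged 6.84 ± 0.37 with FoxD3-VP16, 9.64 ± 0.34 with FoxD3 and 5.76 ± 0.47 with the empty vector (SD, n = 4 each). It rose by 3.88 with FoxD3 (SE 0.29, limma's adjusted p = 2.08e-05), and FoxD3-VP16 differed from FoxD3 by -2.80, with limma's adjusted p of 0.000103. Against the empty vector FoxD3-VP16 differed by 1.08 (limma's adjusted p = 0.156, or 0.0180 with the block). The mean of Tgm2 with the empty vector lies below the brightness limit.

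Bhlhe40, a transcriptional repressor of the circadian clock, averaged 10.9 ± 0.47 with FoxD3-VP16, 12.9 ± 0.24 with FoxD3 and 11.7 ± 0.34 with the empty vector (SD, n = 4 each). It rose by 1.15 with FoxD3 (SE 0.23, limma's adjusted p = 0.0151), a call lost under median scaling (0.162), and was lower with FoxD3-VP16 than with FoxD3 (-2.01, adjusted p = 0.000211 in limma). Its difference of -0.86 with FoxD3-VP16 against the empty vector had limma's adjusted p of 0.160, or 0.00112 with the block. Meis2, a homeobox cofactor, averaged 11.0 ± 0.29 with FoxD3-VP16, 10.2 ± 0.42 with FoxD3 and 10.8 ± 0.30 with the empty vector (SD, n = 4 each). It was 0.84 higher with FoxD3-VP16 than with FoxD3 (SE 0.23, limma's adjusted p = 0.0340). That call was lost without FoxD3-VP16 array 2, 3 or 4 or FoxD3 array 1 or 4 (up to 0.105), in the values as deposited (0.0615) and under median scaling (0.466). FoxD3 differed from the empty vector by -0.59 (limma's adjusted p = 0.198, or 0.000815 with the block). Rarb, itself a receptor gene induced by retinoic acid, differed from the empty vector by -0.48 with FoxD3-VP16 and by -0.54 with FoxD3, and neither passed in either fit.

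**Figure D4:**
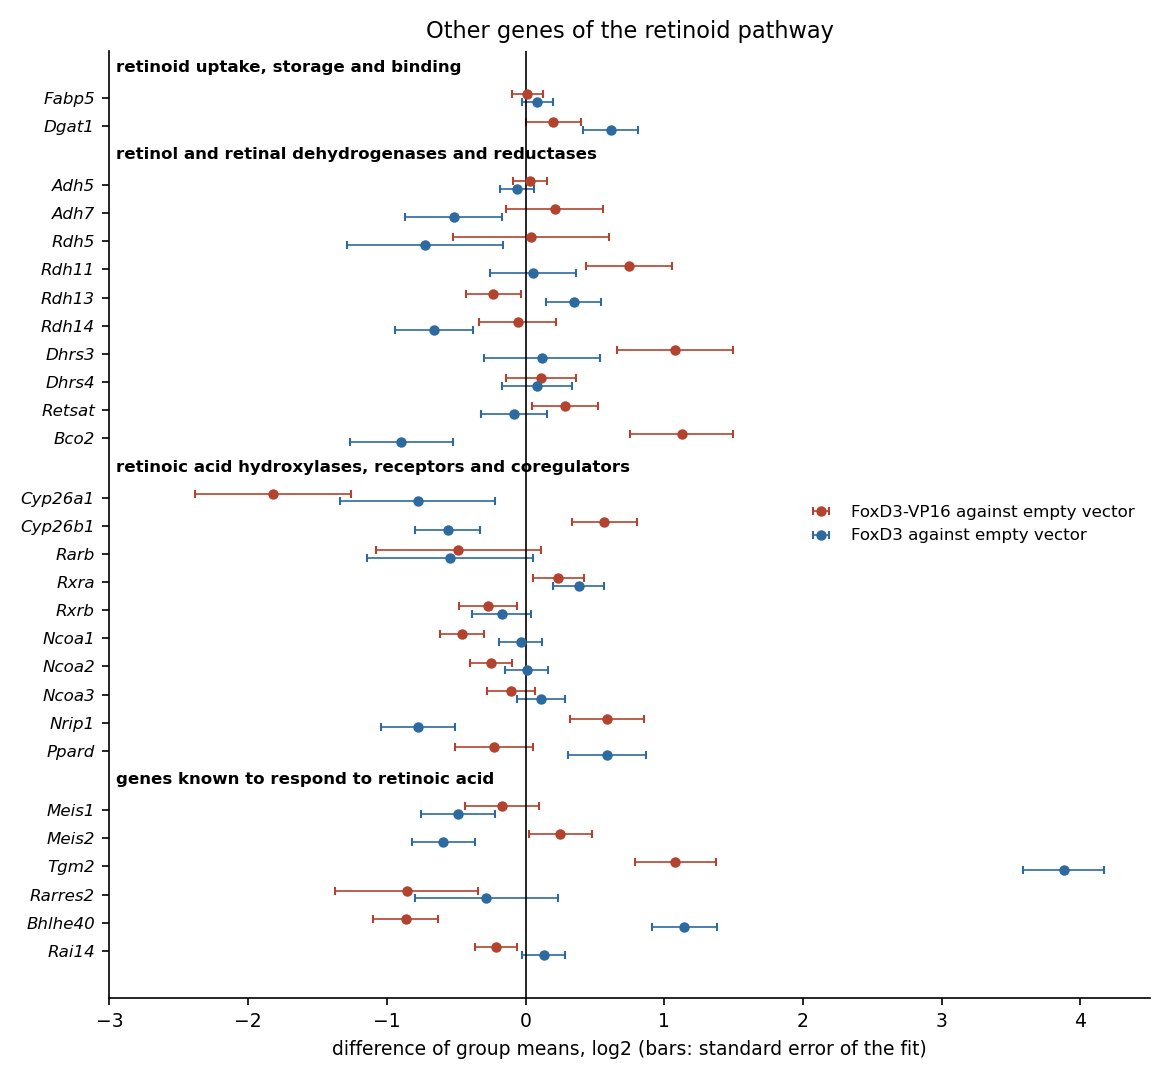
Differences from the empty vector with FoxD3-VP16 and with FoxD3 for the other tested genes of the retinoid pathway, log2(intensity + 16), with bars for the standard error of the fit; genes in 2 lists are drawn once. Tgm2 lies farthest to the right, 3.88 with FoxD3. In FoxD3-VP16 against the empty vector no gene passed the threshold without the replicate block, and with it 4 passed higher and 3 lower.

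The genes whose levels ran most like Adh1 over the 12 arrays were Fam214a (Pearson r = 0.990), Oxr1 (0.987), Myo6 (0.979), Cavin2 (0.979) and D130037M23Rik (0.978). Cavin2, a caveolar coat protein, had means of 13.1 with FoxD3-VP16, 10.1 with FoxD3 and 11.2 with the empty vector, and Oxr1, an oxidation resistance protein, had 12.3, 11.2 and 11.6. The genes that ran most opposite were Sox10 (-0.974), Ier2 (-0.956) and Phf23 (-0.944). Sox10, a neural crest and melanocyte transcription factor, had means of 11.9 with FoxD3-VP16, 13.4 with FoxD3 and 12.7 with the empty vector. The 2 genes most like Rdh10 were Slc25a37 (0.940) and Sqstm1 (0.938), and those most like Crabp2 were Gpd1 (0.976) and Arrb1 (0.967). Gpd1 averaged 6.95 with FoxD3-VP16, 8.75 with FoxD3 and 7.04 with the empty vector. These levels are of the brightest probe set of each gene. With the mean of all probe sets FoxD3 differed from the empty vector by 0.60 for Gpd1 (limma's adjusted p = 0.292). In that fit the difference was -0.11 for Oxr1 and -0.63 for Myo6 (adjusted p = 0.807 and 0.114 in limma). The calls of these genes with FoxD3 were thereby lost. These correlations describe 12 arrays that share 3 vectors and 4 replicate numbers, and were picked as extremes among all tested genes.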

How the data were processed

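The authors deposited linear intensity values of 45101 probe sets on 12 arrays. Per the submitters' processing notes the tool was MAS5, with no version stated, and a label names dChip. From the deposited intensity, log2(intensity + 16) was computed, 64 control probe sets were left out, and the arrays were quantile normalized, since their medians as deposited spanned 0.79. Symbols came from the platform's table: a single symbol stood for 34945 probe sets, several for 932 and none for 9160, and the gene test used those with a single one. The probe set with the highest mean stood for a gene, and the lowest 40% of 18193 genes were left out, which left 10916. The number of arrays limits the precision.

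Groups and replicate numbers came from the sample titles. One limma model (version 3.58.1, R 4.3.3, lmFit and then eBayes with trend) held all 12 arrays, with Benjamini-Hochberg adjustment and a threshold of 0.05. A second fit covered 24129 probe sets. Whether replicate numbers pair the samples was checked on deviations from group means: over genes, the 12 same-number pairs of arrays correlated at 0.37 to 0.67, so the numbers were taken to pair them, though no label says what a number stands for. The 6 pairs that join number 3 to number 4 had 0.37 to 0.54, and the remaining 30 had -0.51 to 0.12. The calculation was tested on simulated data. Figures used Python 3.11.15 and matplotlib 3.10.9.

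The members and lists were chosen with earlier results of these data known. Named genes are the 9 members, each list gene called in any comparison (at most 8 per list), the 5 genes most like and 3 most unlike Adh1 by Pearson r, and the 2 most like each other called member. Dgat1, Stra6, Lrat, Dhrs3, Cyp26a1, Rarb and the alcohol dehydrogenases of the cluster lie outside that rule and were chosen after their values were seen. All 4 tested fibroblast markers are given. Alternatives covered the pseudocount, the scaling, the dim filter, the probe set taken, array weights, the groups in the fit, the replicate block and each array left out.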

Additional observations from a re-analysis of the deposited data

Results flagged for a closer look

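In 4 of 96 groups of 4 arrays examined, 1 array lay far from the other 3 by Dixon's criterion, where chance alone marks about 5% of groups. Crabp2 on FoxD3-VP16 array 1 read 5.39, against 6.80 to 7.08 on the other 3. Fam214a on the same array read 9.58, against 9.74 to 9.77. Gpd1 on it read 6.40, against 7.10 to 7.15. Bhlhe40 on FoxD3-VP16 array 2 read 11.6, against 10.6 to 10.7 on the other 3, and without that array its difference between FoxD3-VP16 and the empty vector was -1.10 and passed the threshold (limma's adjusted p = 0.0372).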

How the results depend on the processing

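There were 25 alternatives, 12 of them leaving out 1 array each, and none turned the direction of a difference that was called. Of the tested members and called list genes, 7 values in 2 uncalled comparisons had the opposite sign: Crabp2 in FoxD3-VP16 against the empty vector (up to 0.41) and Rarg in FoxD3 against it (down to -0.15). The difference of Adh1 between FoxD3 and the empty vector was -0.79 with a pseudocount of 64, -1.28 with array weights and -1.19 without the 3 arrays numbered 1, and that between FoxD3-VP16 and FoxD3 was 2.19 with a pseudocount of 64. With the lowest 60% of genes left out Adh1 fell below the limit and has no value. Besides Adh1, 3 members were tested. Of these, 0 passed the threshold in FoxD3-VP16 against the empty vector, 1 in FoxD3 against it and 2 between the transgenes. Over all tested genes the shares called were 0.595%, 4.01% and 9.57%. The counts were 0, 1 and 1 under median scaling and 0, 0 and 1 of 2 tested with the lowest 60% left out. Of all genes, median scaling called 8, 187 and 420 of 10916. With the lowest 60% left out 46, 274 and 801 of 7277 were called. Without the arrays numbered 1 the member counts were 1, 2 and 2 of 4 tested, in a fit that called 277, 870 and 1815 of 10916 genes. Rara, which passed the dim filter there through the transgene groups, was among those with FoxD3. In FoxD3-VP16 against the empty vector the counts were 2 with array weights and 1 with the replicate block. Those fits called 3465 and 1217 of 10916 genes in that comparison, so nothing is read from these counts. Leaving out 1 array gave 1 to 2 between the transgenes, where 602 to 1214 of all genes were called.

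Of all genes, 65 were called in FoxD3-VP16 against the empty vector, 438 in FoxD3 against it and 1045 between the transgenes. The replicate block gave 1217, 2297 and 3498, array weights 3465, 4193 and 4455, median scaling 8, 187 and 420, and the arrays without number 1 gave 277, 870 and 1815. Leaving out 1 array gave 13 to 82, 197 to 555 and 602 to 1214, and the 2 groups alone gave 20 in FoxD3-VP16 against the empty vector. Of the 28 other retinoid genes, array weights called 11, 13 and 19 in that order, and the block 7, 8 and 15. Median scaling called 1 in FoxD3 against the empty vector and 3 between the transgenes, as did the lowest 60% left out (1 and 3). In FoxD3 against the empty vector the mean of probe sets called 4, and 5 were called without the arrays numbered 1. In FoxD3-VP16 against it 1 was called without those arrays, and leaving out 1 array gave 0 to 1. Under median scaling 88.8% of calls were higher in FoxD3 against the empty vector, beside 72.1%, and 35.2% between the transgenes, beside 46.4%. For the 10 tested members and called list genes other than Adh1, 696 of 738 values under the alternatives stayed on their side of the threshold, 20 dropped out and 22 came in. The cause of these changes was not tested. Probe sets near the brightness limit, those of Aldh1a3, Crabp1 and Rara above all, are limited by signal over background.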

Other observations

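Of 15 other aldehyde dehydrogenases on the array, which oxidize aldehydes other than or besides retinal, 12 were bright enough to be tested. Aldh3a2, a fatty aldehyde dehydrogenase, averaged 9.45 ± 0.20 with FoxD3-VP16, 8.66 ± 0.14 with FoxD3 and 8.86 ± 0.25 with the empty vector (SD, n = 4 each). It was 0.79 higher with FoxD3-VP16 than with FoxD3 (SE 0.17, limma's adjusted p = 0.0123), a call lost under median scaling (0.340), and 0.58 higher than with the empty vector (adjusted p = 0.215 in limma, 0.0245 with the replicate block). It was the only one of the 12 called in that fit, and 0 were called against the empty vector with either transgene, where 4 and 2 had an unadjusted p under 0.05 with FoxD3-VP16 and with FoxD3. Nothing is read from the unadjusted counts, since their share over all genes was not counted. With the block, 5 passed with FoxD3-VP16 (4 higher, 1 lower), 2 with FoxD3 (1 higher, 1 lower) and 7 between the transgenes (6 higher, 1 lower). Over all genes, 0.595% were called with FoxD3-VP16, 4.01% with FoxD3 and 9.57% between the transgenes, and 11.1%, 21% and 32% with the block, so that 1 of 12 (8.33%) between the transgenes is near the share of all genes.

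Of the 4 fibroblast markers bright enough to be tested, Pdgfrb averaged 9.08 ± 0.50 with FoxD3-VP16, 9.31 ± 0.20 with FoxD3 and 7.48 ± 0.47 with the empty vector (SD, n = 4 each). It rose by 1.60 with FoxD3-VP16 and by 1.84 with FoxD3 (limma's adjusted p = 0.0240 and 0.00237). Col1a1 rose by 2.68 with FoxD3 (adjusted p = 0.0102 in limma), and its empty vector mean of 5.12 lies below the brightness limit. Col1a1 thus passed the dim filter through arrays with a transgene, where it was higher, and its call is no support for a change. Pdgfra differed from the empty vector by 0.67 with FoxD3-VP16 and by 1.21 with FoxD3 (limma's adjusted p = 0.547 and 0.0672, the second 0.0191 with the block). Col1a2 differed by 0.12 with FoxD3-VP16 and by -0.72 with FoxD3, where it was lower in 4 of 4 pairs (limma's adjusted p = 0.978 and 0.448).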
